A study of Mus musculus with 14 samples.

Results

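Axon guidance genes were examined across 5 mouse ovarian tumor cell lines that differ in focal adhesion kinase (FAK) or β-catenin. The genes were the semaphorins (Sema), plexins (Plxn), neuropilins (Nrp), ephrins (Efna, Efnb), Eph receptors (Epha, Ephb), netrins (Ntn), Unc5 receptors, Slit ligands and Robo receptors. They were taken by their symbols, and the symbols matched 70 protein-coding genes of 35275 genes in the expression table. The 70 genes were 20 semaphorins, 11 plexins and neuropilins, 14 Eph receptors, 8 ephrins, 8 netrin and Unc5 genes, 7 Slit and Robo genes, and 2 genes whose symbols begin like Unc5 without being guidance receptors (Unc50 and Unc5cl). These 2 are kept in the counts of all 70 and in no family.

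These families were first described as the signals that steer growing axons. Semaphorins bind plexins, and the secreted class 3 semaphorins mostly do so through neuropilins as co-receptors. Ephrins are membrane-bound ligands of the Eph receptor tyrosine kinases, so that signalling passes between touching cells and in both directions. Secreted netrins bind Dcc, Neo1 and Unc5 receptors, and secreted Slits bind Robo receptors. The same genes are expressed in many epithelia and tumors, where they act on adhesion, motility and vessel growth, and focal adhesion kinase is among the kinases that several of these receptors use.

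KMF cells came from ID8 mouse ovarian cancer cells passaged in C57Bl6 mice. FAK KO cells were 1 KMF clone (KT13) made FAK-/- by CRISPR. FAK-WT and FAK-R454 cells were this clone after lentiviral expression of GFP-FAK or of kinase-inactive GFP-FAK-R454, and β-catenin ΔGSK cells were the clone after retroviral expression of an active β-catenin with GFP made separately. All lines other than KMF therefore lack the endogenous FAK and share the history of that clone, and each added protein was expressed from a viral vector. The transduced cells were also drug-selected and enriched by flow cytometry. No sample was labelled as the clone with an empty vector or GFP alone. In differences from FAK KO, the added protein, transduction with selection, and later change of a line therefore cannot be told apart. Poly(A) RNA of cells grown for 5 days as tumorspheres in PromoCell medium, without drug, was sequenced in 2 samples of FAK-R454 cells and 3 samples of every other line.

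Between 25390558 and 35289859 fragments per sample lay on genes. Values are FPKM, which scale the fragments of a gene by its length and by the mapped fragments of the sample, and so allow levels to be set side by side between genes. Lines were compared with limma on log2(FPKM + 0.1), a scale that understates the change of low genes, and p-values were adjusted by Benjamini-Hochberg over all genes tested. Below, a gene that passed has an adjusted p under 0.05, and a gene called at 2-fold also differs by at least 1 on the log2 scale with a mean above 1 FPKM in the higher line. Ptk2, which encodes FAK, counted over the whole gene, had a mean of 15.5 FPKM in β-catenin ΔGSK, 19.0 in FAK KO, 24.3 in KMF, 43.4 in FAK-WT and 62.4 in FAK-R454 cells. Ctnnb1, which encodes β-catenin, averaged 128.6 FPKM in FAK-WT, 136.2 in FAK-R454, 144.6 in FAK KO, 199.9 in KMF and 214.1 in β-catenin ΔGSK cells. Replicates of every line differed by more than counting noise, and FAK-WT replicate 3 stood apart from the other two FAK-WT samples (chi-square per gene 42.5 and 30.5, against 3.15 between those), as KMF replicate 3 did from the other KMF samples (23.8 and 29.05, against 4.59). Replicate 1 lay farther from the others in β-catenin ΔGSK (18.1 and 30.4, against 8.75) and in FAK KO cells (22.2 and 11.4, against 8.17). Of 12 markers of ovarian surface epithelium and mesothelium, 8 had a mean above 1 FPKM in at least 1 line and 7 in every line, such as Krt8, Krt19 and Wt1, while Epcam and Muc16 stayed under 1 FPKM. Of other cell types, 1 of 5 leukocyte markers found (Cd68, line means from 1.32 to 8.62 FPKM), 2 of 5 endothelial markers (Tek, 6.75 to 28.7, and Pecam1, 0.286 to 1.17), 3 of 5 fibroblast markers (Dcn, 33.05 to 112.8, Pdgfra, 0.815 to 10.3, and Col1a1, 0.194 to 10.1) and 4 of 7 markers of neurons and glia (among them Tubb3, 11.3 to 33.01, Rbfox3, 0.00406 to 5.47, and Snap25, 0.206 to 1.74) were above 1 FPKM in at least 1 line. Ptprc, Cd3e, Cdh5, Kdr, Col1a2 and Lum were at or near 0. Several of these moved between lines: Pdgfra averaged 0.815 FPKM in β-catenin ΔGSK, 3.03 in FAK KO, 8.87 in FAK-R454, 9.06 in KMF and 10.3 in FAK-WT cells, and Col1a1, in the same order, 0.194, 1.32, 10.1, 2.46 and 9.12. Dcn averaged 38.6, 98.97, 107.7, 33.05 and 112.8 FPKM and Cd68 1.32, 2.99, 4.29, 3.08 and 8.62 FPKM in that order. Between KMF and FAK KO cells, Rbfox3 averaged 5.47 against 0.00406 FPKM, Tubb3 11.3 against 33.01 and Snap25 0.206 against 1.44. The part of these markers in the results was not tested. In bulk RNA, fewer cells of a type and less RNA per cell cannot be told apart.

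Of the 70 genes, 48 had a mean above 1 FPKM in at least 1 line and 40 in every line. By line, 41 were above 1 FPKM in KMF, 43 in β-catenin ΔGSK, 45 in FAK KO, 45 in FAK-WT and 46 in FAK-R454 cells. Plexins and neuropilins were the most complete family, with 10 of 11 above 1 FPKM in every line, and Slit and Robo genes the least, with 1 of 7 (Slit2). The 8 genes above 1 FPKM in only some lines were Sema3d, Sema3g, Sema6b, Efnb3, Robo2, Robo3, Robo4 and Slit3. Another 22 stayed at or under 1 FPKM in all lines, among them 9 of 14 Eph receptors. The highest line means of these 22 ran from 0 for Unc5d and Unc5cl to 0.920 for Robo1, a Slit receptor, and 12 of them were under 0.1 FPKM in every sample. Netrin-1 (Ntn1), the best known netrin, was one of the 22, with means from 0.0368 FPKM in β-catenin ΔGSK to 0.373 in KMF cells.

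**Figure D1:**
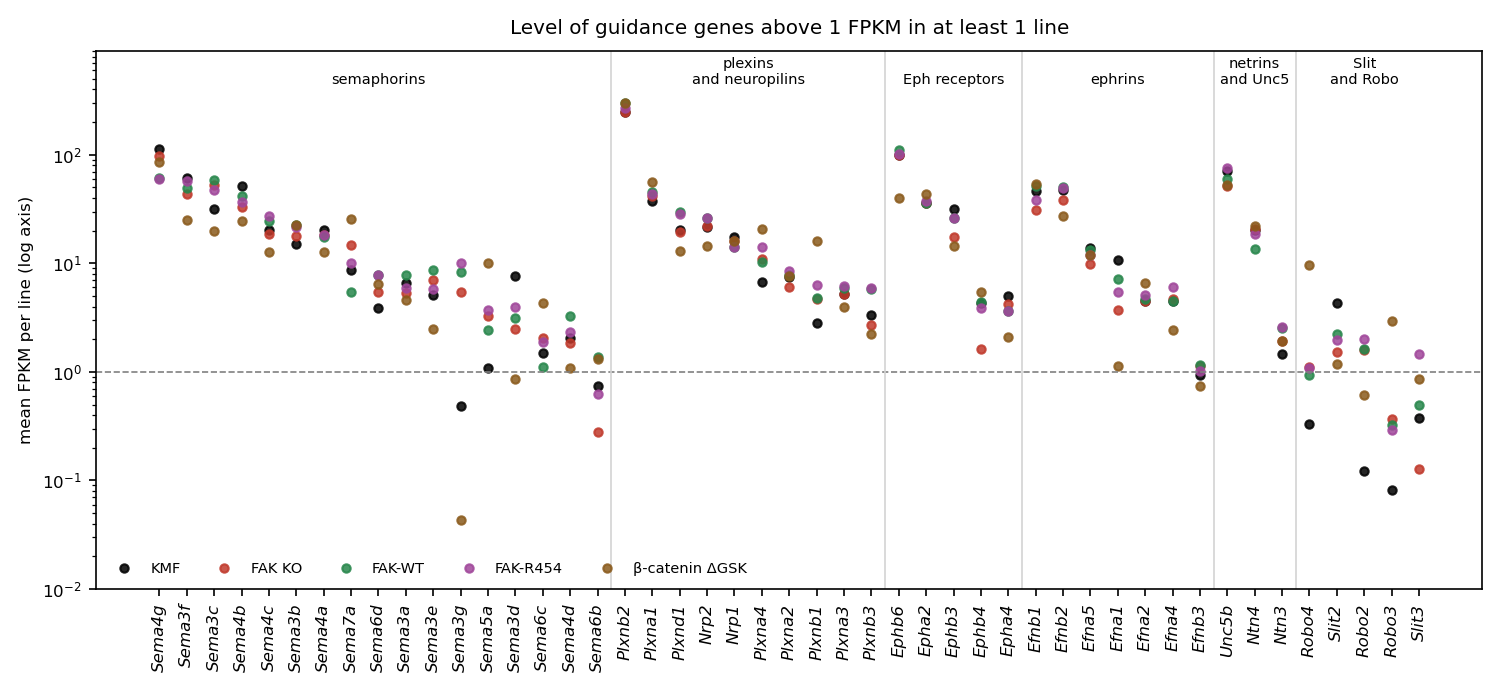
Mean FPKM of each guidance gene above 1 FPKM in at least 1 line (log axis), with 1 point per line and genes ordered within families. Plxnb2 and Ephb6 lead the receptors and Sema4g leads the semaphorins, and the points of Sema3g and of the Robo genes spread the most.

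The gene with the highest mean over the 5 lines is given for each family. In some families another gene led in some of the lines. Plxnb2, the plexin that binds class 4 semaphorins such as Sema4c, averaged 249.5 FPKM in FAK KO, 250.3 in KMF, 267.1 in FAK-R454, 298.8 in β-catenin ΔGSK and 300.8 in FAK-WT cells. Sema4g, a transmembrane class 4 semaphorin, averaged 59.3 FPKM in FAK-R454, 60.6 in FAK-WT, 86.4 in β-catenin ΔGSK, 97.0 in FAK KO and 114 in KMF cells. Ephb6, an Eph receptor whose kinase domain is inactive, lay between 91.7 and 138.8 FPKM in the samples of all lines but β-catenin ΔGSK, where it was 34.3, 41.8 and 42.9 FPKM. In β-catenin ΔGSK cells Epha2 averaged more, at 43.1 FPKM against 39.7 for Ephb6. By the mean over the 5 lines, the leading ephrin was Efnb1 (44.3 FPKM) before Efnb2 (42.7 FPKM). Efnb2 was the higher of these in FAK KO, KMF and FAK-R454 cells. The leading netrin family gene was the netrin receptor Unc5b. Efnb1, Efnb2 and Unc5b were above 20 FPKM in every line. Robo4 had the highest mean of the Slit and Robo genes over the 5 lines, with its high values in the β-catenin ΔGSK samples. In the other lines Slit2 or Robo2 averaged more, such as 4.29 FPKM for Slit2 against 0.332 for Robo4 in KMF cells. Summed over each family, semaphorins made 328.8 ± 8.86 FPKM in FAK KO (SD, n = 3) and 261.3 ± 19.98 in β-catenin ΔGSK cells (SD, n = 3), and ephrins made 93.0 ± 2.20 in FAK KO and 133.6 ± 2.56 in FAK-WT cells (SD, n = 3).

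Re-expression of FAK sets these genes side by side in the same clone with and without added FAK. In FAK-WT against FAK KO cells, 46 of the 70 genes were tested, of which 21 were higher and 5 lower at an adjusted p under 0.05. Over all genes tested, 15.6% were higher and 25.2% lower. At 2-fold, 3 members were called higher (2.91% of all genes) and 1 lower (1.71% of all genes). The median log2 fold change was 0.23 for the members and −0.08 for all genes tested. Counts by family were 8 of 17 semaphorins higher and 4 lower, 5 of 10 plexins and neuropilins higher, 2 of 5 Eph receptors higher and 4 of 7 ephrins higher.

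Among the ligands, Sema7a, a semaphorin held to the membrane by a lipid anchor that signals through integrins and Plxnc1, was lower with FAK. Its values were 13.8, 16.2 and 14.7 FPKM in FAK KO samples and 5.50, 5.12 and 5.84 FPKM in FAK-WT samples. The groups did not overlap, and the log2 fold change was −1.42 (SE 0.09, adjusted p = 2.81e-05 by limma). Plxnc1 itself averaged under 0.1 FPKM in every line. Sema6b, a transmembrane ligand of class A plexins, moved the other way, from 0.268, 0.259 and 0.306 FPKM in FAK KO to 1.06, 1.09 and 1.92 FPKM in FAK-WT samples. All FAK-WT samples were higher, replicate 3 the most, with a log2 fold change of 1.90 (SE 0.27, adjusted p = 0.00137 by limma), or 0.87 with a pseudocount of 1. Sema6b entered that test through its FAK-WT level alone, so a difference in level was built in. Sema4g was lower in FAK-WT cells (log2 fold change −0.68, adjusted p = 0.00141 by limma).

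Smaller rises among the semaphorins were Sema4d (0.77 on the log2 scale), Sema3g (0.60), Sema3a (0.55), Sema6d (0.51), Sema4c (0.39), Sema4b (0.36) and Sema3b (0.35), each past limma's test. Sema5a (−0.43) and Sema6c (−0.79) were lower. The rise of Sema4d, the ligand of Plxnb1, was largest in FAK-WT replicate 3, with 2.62, 2.85 and 4.30 FPKM in FAK-WT against 2.05, 1.93 and 1.53 FPKM in FAK KO samples. Without FAK KO replicate 3 its adjusted p by limma was 0.0604, and without FAK-WT replicate 2 that of Sema5a was 0.0558. Sema5a lies on chromosome 15, whose genes shifted by 0.37 against all genes, and with that shift taken off its difference was −0.74 (adjusted p = 0.00165 by limma).

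The ephrins that passed all rose. Efna1, a ligand of Epha2 anchored by a lipid, was 3.87, 3.45 and 3.85 FPKM in FAK KO samples and 6.39, 7.17 and 7.80 FPKM in FAK-WT samples (log2 fold change 0.91, SE 0.10, adjusted p = 0.000405 by limma). Efnb1, a transmembrane ephrin, was 27.8, 33.0 and 31.4 FPKM in FAK KO samples and 52.4, 53.3 and 49.2 FPKM in FAK-WT samples (log2 fold change 0.75, SE 0.08, adjusted p = 0.000328 by limma). In both genes every FAK-WT sample was above every FAK KO sample. Efnb2 rose by 0.42 and Efna5 by 0.43 on the log2 scale. Efna5 lies on chromosome 17, whose genes as a whole shifted by 0.23 against all genes in this comparison. After that shift was taken off, its difference was 0.28 with an adjusted p by limma of 0.0746.

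Of the receptors, Ephb4, which binds Efnb2, was called at 2-fold. It was 1.66, 1.78 and 1.47 FPKM in FAK KO samples and 4.06, 4.59 and 4.63 FPKM in FAK-WT samples, with no overlap (log2 fold change 1.38, SE 0.12, adjusted p = 0.00013 by limma). Plxnb3, a receptor for Sema5a, was 2.51, 2.93 and 2.66 FPKM in FAK KO samples and 5.72, 6.11 and 5.55 FPKM in FAK-WT samples. Again the groups did not overlap (log2 fold change 1.07, SE 0.10, adjusted p = 0.000168 by limma, or 0.88 with a pseudocount of 1). Plxnd1, a receptor for Sema3e, rose by 0.63 on the log2 scale, Ephb3 by 0.56, Plxna2 by 0.34, and Nrp2, the co-receptor of Sema3f, by 0.25. For Nrp2 the adjusted p was 0.0534 by limma without FAK KO replicate 3.

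Plxnb2 rose by 0.27 (adjusted p = 0.0227 by limma), but genes of its chromosome 15 shifted together by 0.37, and the difference without that shift was −0.04. It also missed the threshold without FAK KO replicate 1 or 3 or without FAK-WT replicate 1 or 2 (adjusted p by limma from 0.0547 to 0.0892). Epha2, a receptor of Efna1, had overlapping groups and did not pass (adjusted p = 0.989 by limma), with 33.0, 36.8 and 38.8 FPKM in FAK KO samples and 38.7, 36.4 and 33.5 FPKM in FAK-WT samples. Of the secreted netrins and Slits, Ntn4, a netrin with a laminin-like domain, was lower, from 19.1, 21.03 and 22.0 FPKM in FAK KO to 13.3, 12.9 and 14.7 FPKM in FAK-WT samples (log2 fold change −0.60, SE 0.08, adjusted p = 0.00103 by limma). Slit2 rose by 0.53 on the log2 scale, with an adjusted p by limma of 0.0158, or 0.065 without FAK KO replicate 3. Unc5b, its mean going from 51.9 to 59.7 FPKM, rose by 0.20 (adjusted p = 0.0374 by limma) and did not pass without any 1 of 5 of the 6 samples, with adjusted p values between 0.0599 and 0.115.

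**Figure D2:**
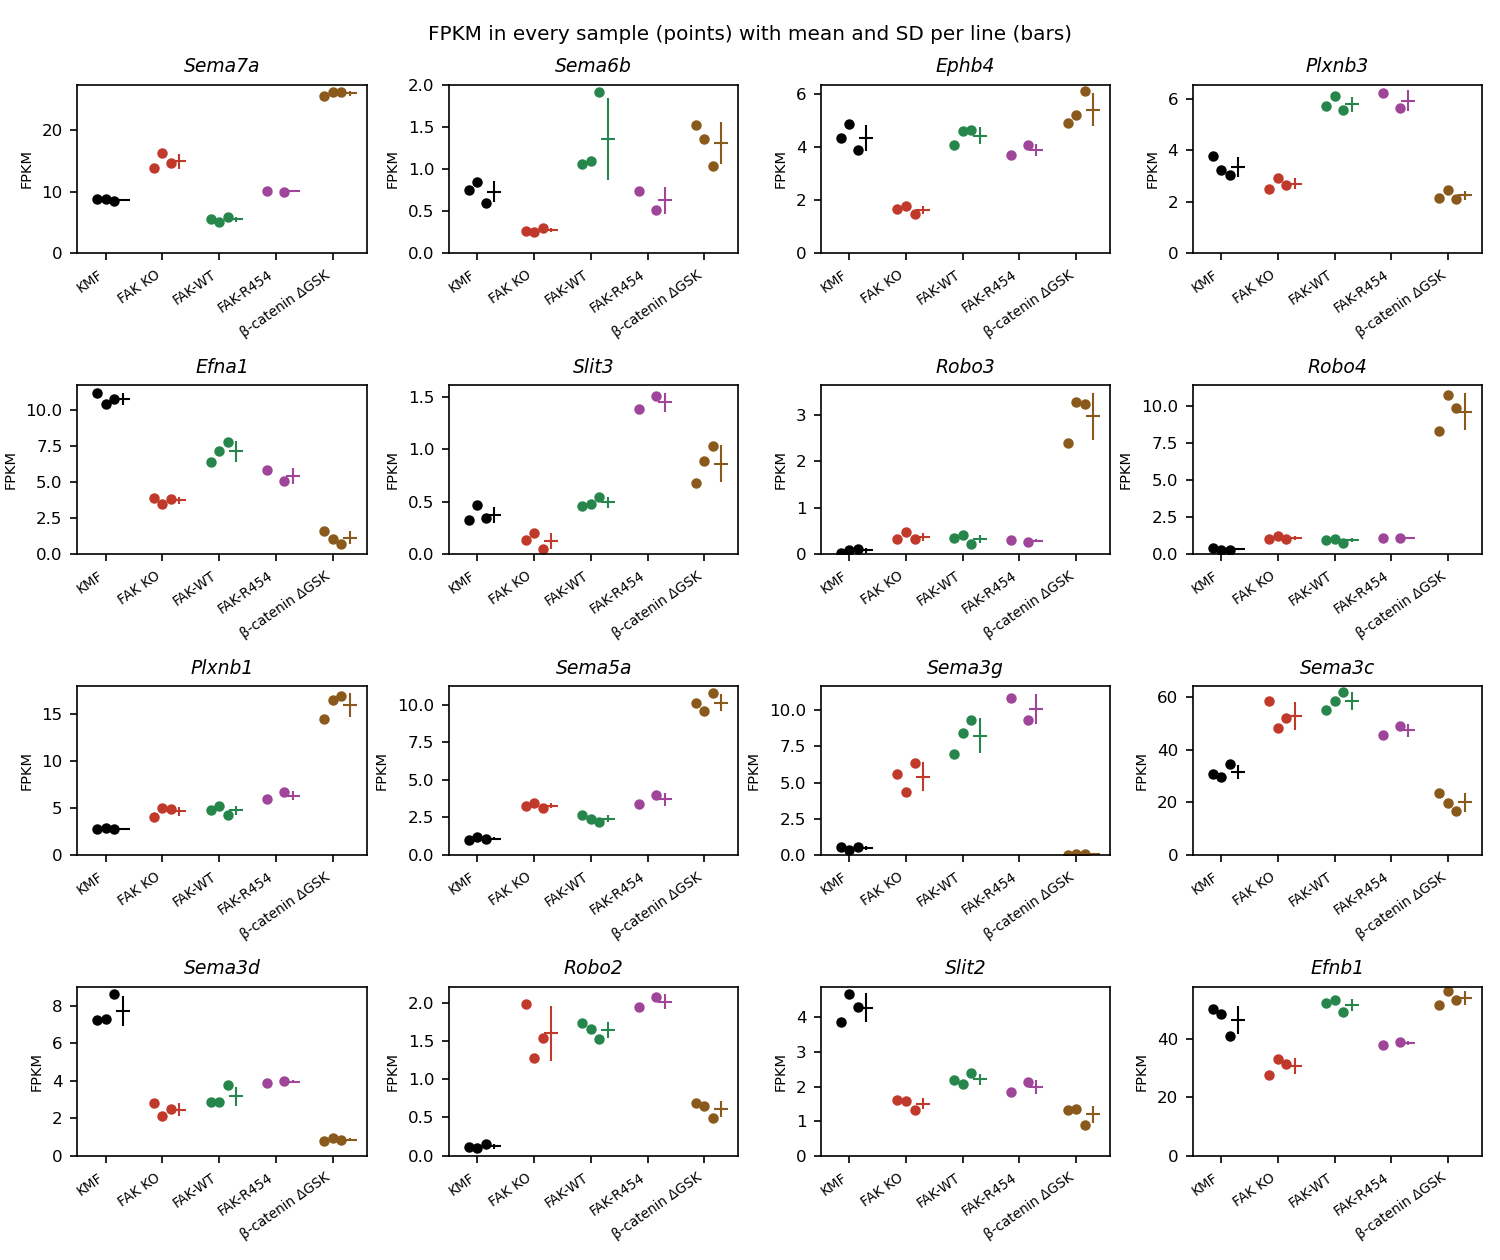
FPKM of 16 guidance genes in every sample (points), with the mean and SD of each line beside them (n = 3, and n = 2 for FAK-R454). Sema7a is lowest in FAK-WT and highest in β-catenin ΔGSK samples, Ephb4 is low in FAK KO samples alone, and Robo3, Robo4, Plxnb1 and Sema5a are highest in β-catenin ΔGSK samples.

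FAK-R454 cells do the same for FAK without kinase activity. Against FAK KO cells, 46 members were tested, of which 20 were higher and 2 lower, against 9.78% and 9.89% of all genes tested. At 2-fold, 3 were called higher (1.93% of all genes), and no member fell by 2-fold (0.812% of all genes did). The median log2 fold change was 0.29 for the members and −0.03 for all genes tested. With 2 FAK-R454 samples these counts had little margin: the 20 became 7 without FAK-R454 replicate 1 and 8 without FAK-R454 replicate 2, and the 2 lower members became 4 without FAK KO replicate 2.

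Ephb4 and Plxnb3 were called in both lines. Ephb4 was 3.72 and 4.06 FPKM in the FAK-R454 samples (log2 fold change 1.20 over FAK KO, SE 0.13, adjusted p = 0.000846 by limma). Plxnb3 was 6.23 and 5.65 FPKM (log2 fold change 1.11, SE 0.11, adjusted p = 0.000536 by limma). For both genes the FAK-WT and FAK-R454 means lay close together, and the direct test of FAK-WT against FAK-R454 gave 0.18 (SE 0.09) for Ephb4 and −0.03 (SE 0.08) for Plxnb3. With a pseudocount of 1 both genes stayed past the test at 0.89 and 0.91 over FAK KO, under the 2-fold limit.

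Slit3, a secreted Robo ligand, was called over FAK KO in FAK-R454 alone, the only line where it averaged above 1 FPKM. It was 0.14, 0.198 and 0.0478 FPKM in FAK KO samples, 0.455, 0.477 and 0.548 FPKM in FAK-WT, and 1.38 and 1.51 FPKM in FAK-R454 samples. The FAK-R454 samples were above all others, and the log2 fold change over FAK KO was 2.82 (SE 0.38, adjusted p = 0.00224 by limma), or 1.12 with a pseudocount of 1. Slit3 entered that test through its FAK-R454 level alone, so a difference in level was built in. It rested on 22, 27 and 7 fragments in the FAK KO samples and on 201 and 250 in the FAK-R454 samples. Slit3 was under the 1 FPKM limit in both FAK-WT and FAK KO cells, so that pair was not tested. Sema7a was lower in FAK-R454 than in FAK KO cells too, at 10.1 and 10 FPKM (log2 fold change −0.56, SE 0.08, adjusted p = 0.00377 by limma).

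The direct comparison of FAK-WT with FAK-R454 sets FAK with kinase activity beside FAK without it. The lines also differed in Ptk2, at 43.4 FPKM in FAK-WT and 62.4 in FAK-R454 cells. Chromosomes shifted between them as well, such as chromosome 15 by 0.196 against all genes. The part of these in the differences was not tested. Of 47 members tested, 2 were higher in FAK-WT and 5 lower, against 3.38% and 4.44% of all genes tested. These counts moved with the fit, to 4 higher with median-of-ratios scaling, 9 lower in 1 fit of all lines, 8 lower with limma-voom, and 1 higher and 3 lower with no filter on low values. They were 9 higher and 14 lower with the replicate number as a block, though these numbers were not shown to pair samples. At 2-fold, 1 member (Slit3) was called lower, against 0.747% of all genes. None was called higher, where 0.696% of all genes were, and the highest value was 0.97 for Sema6b (SE 0.30, adjusted p = 0.11 by limma). The 5 lower genes were Slit3 at −1.38 (−0.71 with a pseudocount of 1), Sema7a at −0.86, Sema5a at −0.59, Efna4 at −0.43 and Unc5b at −0.33 on the log2 scale, and the 2 higher genes were Efnb1 at 0.42 and Sema3c, a secreted class 3 semaphorin, at 0.30. Ntn4 missed the threshold at −0.44 (SE 0.10, adjusted p = 0.0504 by limma).

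Sema7a formed a series, with FAK-WT samples between 5.12 and 5.84 FPKM, FAK-R454 at 10.1 and 10 FPKM and FAK KO from 13.8 to 16.2 FPKM. The 3 ranges did not overlap, and FAK-WT against FAK-R454 gave an adjusted p of 0.00444 by limma. Efnb1 ran the other way, with 38.0 and 39.1 FPKM in the FAK-R454 samples between the FAK KO and FAK-WT ranges (adjusted p = 0.0135 by limma). Unc5b was 73.9 and 76.0 FPKM in FAK-R454 samples, above the 58.8 to 60.4 FPKM of FAK-WT (adjusted p = 0.016 by limma). None of the 7 genes held in every leave-one-out fit. Where FAK-R454 replicate 1 or 2 was left out, the lone sample left gives no spread of its own, so only effect sizes are given. On the log2 scale these were −0.86 and −0.87 for Sema7a, 0.40 and 0.44 for Efnb1, and −1.44 and −1.325 for Slit3. They lay near the values of the full fit. Without FAK-WT replicate 3 the counts of members past the test rose to 8 higher and 14 lower. Without FAK-WT replicate 1 they were 1 and 2, and without FAK-WT replicate 2 they were 0 and 1.

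**Figure D3:**
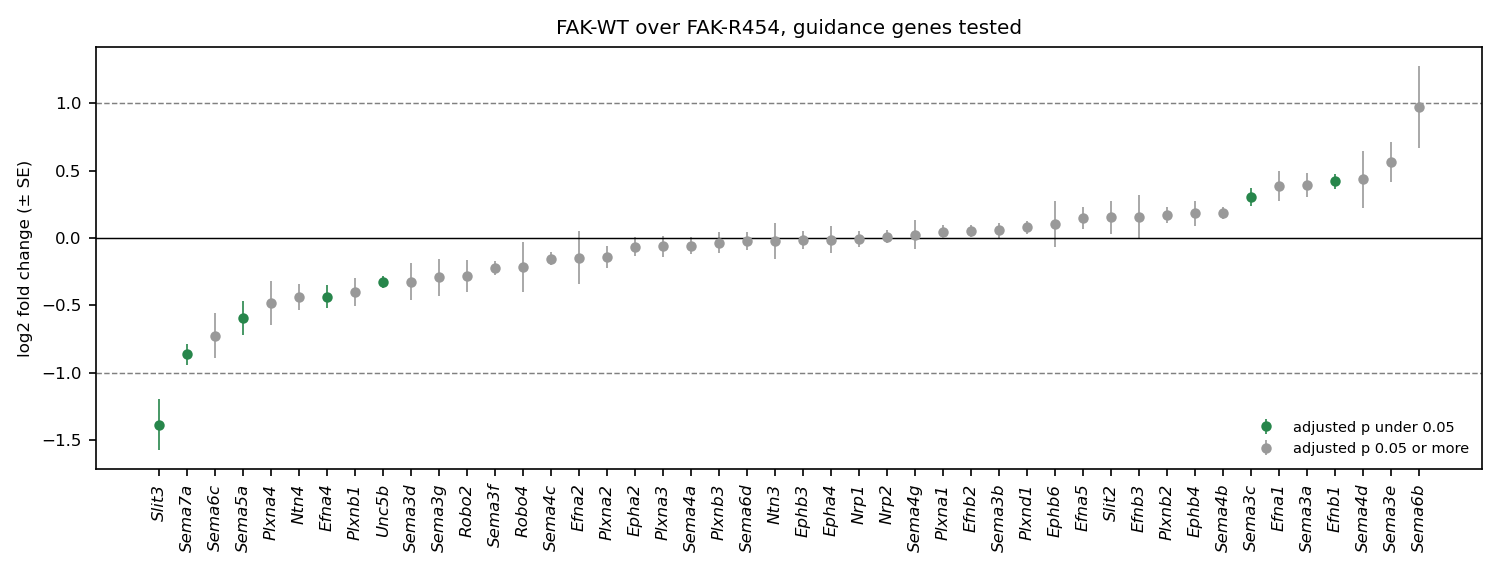
Log2 fold change of FAK-WT over FAK-R454 for each guidance gene tested, with its standard error, ordered by size. Green points passed the test (adjusted p under 0.05). Slit3 alone lies past the dashed line of a 2-fold decrease, and most genes lie within 0.5 of 0.

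Expression of active β-catenin in the same FAK-null clone sets these genes side by side with and without that protein. Of 47 members tested in β-catenin ΔGSK against FAK KO, 17 were higher and 21 lower, against 23.7% and 34.4% of all genes tested. At 2-fold, 7 were called higher (5.13% of all genes) and 7 lower (6.99% of all genes). The median log2 fold change was −0.21 for the members and −0.09 for all genes tested. The genes called higher were 2 Robo receptors, 3 transmembrane semaphorins, 1 plexin and 1 Eph receptor, and those called lower included 4 secreted class 3 semaphorins.

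Robo4, known from endothelial cells, and Robo3, a divergent Robo of commissural axons, rose the most. Robo4 was 1.03, 1.25 and 1.02 FPKM in FAK KO samples and 8.28, 10.7 and 9.84 FPKM in β-catenin ΔGSK samples (log2 fold change 3.01, SE 0.13, adjusted p = 3.73e-07 by limma). Robo3 was 0.326, 0.468 and 0.322 FPKM in FAK KO samples and 2.39, 3.27 and 3.23 FPKM in β-catenin ΔGSK samples (log2 fold change 2.70, SE 0.20, adjusted p = 7.46e-06 by limma, or 1.52 with a pseudocount of 1). Robo3 entered that test through its β-catenin ΔGSK level alone, so a difference in level was built in. In both genes the β-catenin ΔGSK samples lay above every sample of the other 4 lines. The endothelial genes Cdh5 and Kdr were at or near 0 in all samples, and Tek was lower in β-catenin ΔGSK (6.75 FPKM) than in FAK KO cells (17.4 FPKM). The Robo pair is adjacent on chromosome 9 (Robo4 at chr9:37401897-37414023 on the plus strand, Robo3 at chr9:37415669-37433163 on the minus strand), with 1646 bases between their facing ends. No source used here says whether fragments were counted by strand. Robo2, a neuronal Slit receptor on chromosome 16, went down instead, from 1.99, 1.27 and 1.53 FPKM to 0.685, 0.654 and 0.498 FPKM (log2 fold change −1.24, SE 0.21, adjusted p = 0.000963 by limma, or −0.68 with a pseudocount of 1).

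Sema5a, a transmembrane semaphorin with thrombospondin repeats, was 3.25, 3.46 and 3.15 FPKM in FAK KO samples and 10.1, 9.56 and 10.8 FPKM in β-catenin ΔGSK samples (log2 fold change 1.60, SE 0.09, adjusted p = 1.29e-06 by limma). Its receptor Plxnb3 did not pass (−0.25, adjusted p = 0.093 by limma). Plxnb1, the receptor of Sema4d, rose from 4.08, 4.97 and 4.90 FPKM to 14.5, 16.5 and 17.0 FPKM (log2 fold change 1.76, SE 0.10, adjusted p = 2.1e-06 by limma). The groups of Sema5a and Plxnb1 were far apart, whereas Sema4d fell by 0.73 on the log2 scale.

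Sema6b rose to 1.52, 1.36 and 1.03 FPKM in β-catenin ΔGSK samples (log2 fold change 1.88, SE 0.21, adjusted p = 9.51e-05 by limma, or 0.85 with a pseudocount of 1). Sema6c, another class 6 semaphorin, was 1.77, 2.67 and 1.66 FPKM in FAK KO samples and 3.42, 5.14 and 4.25 FPKM in β-catenin ΔGSK samples (log2 fold change 1.05, SE 0.20, adjusted p = 0.0023 by limma). The 2-fold call of Sema6c was lost, at 0.97, 0.92 and 0.91, without FAK KO replicate 1, without FAK KO replicate 3 and without β-catenin ΔGSK replicate 2, and it passed the test each time. Both Sema6b and Sema6c had higher values in each β-catenin ΔGSK sample than in any FAK KO sample. Ephb4 rose to 4.89, 5.21 and 6.12 FPKM (log2 fold change 1.66, SE 0.12, adjusted p = 9e-06 by limma). Its ligand Efnb2 was lower, at 28.8, 27.1 and 26.5 FPKM against 38.1, 35.9 and 40.5 FPKM in FAK KO (log2 fold change −0.47, SE 0.07, adjusted p = 0.000545 by limma). Ephb4 was thus higher than in FAK KO cells in each of the other 4 lines, all set against the same FAK KO samples.

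The largest difference among the members tested in this comparison was a lower level of Sema3g, a secreted semaphorin that acts through Nrp2. It was 5.58, 4.34 and 6.32 FPKM in FAK KO samples and 0.0233, 0.0607 and 0.0449 FPKM in β-catenin ΔGSK samples, or 763, 514 and 803 fragments against 3, 7 and 6. The log2 fold change was −5.26 (SE 0.21, adjusted p = 2.23e-07 by limma), or −2.61 with a pseudocount of 1. FAK-WT and FAK-R454 samples kept between 6.95 and 10.8 FPKM, while KMF samples were at 0.546, 0.355 and 0.556 FPKM. Sema3g was thus low in KMF and β-catenin ΔGSK cells and high in the other lines.

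Sema3c, Sema3d and Sema3e, other secreted class 3 ligands, were lower too. Sema3c was 58.5, 48.1 and 51.9 FPKM in FAK KO samples and 23.5, 19.9 and 16.5 FPKM in β-catenin ΔGSK samples (log2 fold change −1.41, SE 0.13, adjusted p = 2.68e-05 by limma). Sema3d was 2.80, 2.09 and 2.48 FPKM and then 0.778, 0.948 and 0.855 FPKM (log2 fold change −1.41, SE 0.15, adjusted p = 8.75e-05 by limma, or −0.89 with a pseudocount of 1). Sema3e, the ligand of Plxnd1, was 7.31, 6.98 and 6.60 FPKM and then 2.67, 2.86 and 1.90 FPKM (log2 fold change −1.48, SE 0.15, adjusted p = 5.08e-05 by limma). None of the groups overlapped. These genes lie with Sema3a within 5347103 bases of chromosome 5, whose genes shifted by −0.23 against all genes in this comparison. With the shift taken off, the differences were −1.10 for Sema3c, −1.10 for Sema3d and −1.16 for Sema3e, and all passed. Sema3a did not pass (−0.21, adjusted p = 0.232 by limma), and Sema3f, on chromosome 9, fell by 0.79 on the log2 scale. Sema3b, a class 3 semaphorin also on chromosome 9, rose instead, by 0.34 (adjusted p = 0.00411 by limma).

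Efna1 fell from the FAK KO values given above to 1.62, 1.04 and 0.729 FPKM (log2 fold change −1.70, SE 0.24, adjusted p = 0.000352 by limma). Ephb6 fell to the values given above from 94.4, 104.7 and 100.2 FPKM (log2 fold change −1.33, SE 0.09, adjusted p = 5.86e-06 by limma). For these genes too, no β-catenin ΔGSK sample reached the FAK KO range. Below 2-fold, Plxna4, a class A plexin, rose by 0.91, Efnb1 by 0.81 and Sema7a by 0.79 on the log2 scale, and Epha4 fell by 0.99, Efna4 by 0.91, Nrp2 by 0.61 and Plxnd1 by 0.55. The netrin genes Ntn3 and Ntn4 and the receptor Unc5b did not pass, with differences of −0.01, 0.10 and 0.02.

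**Figure D4:**
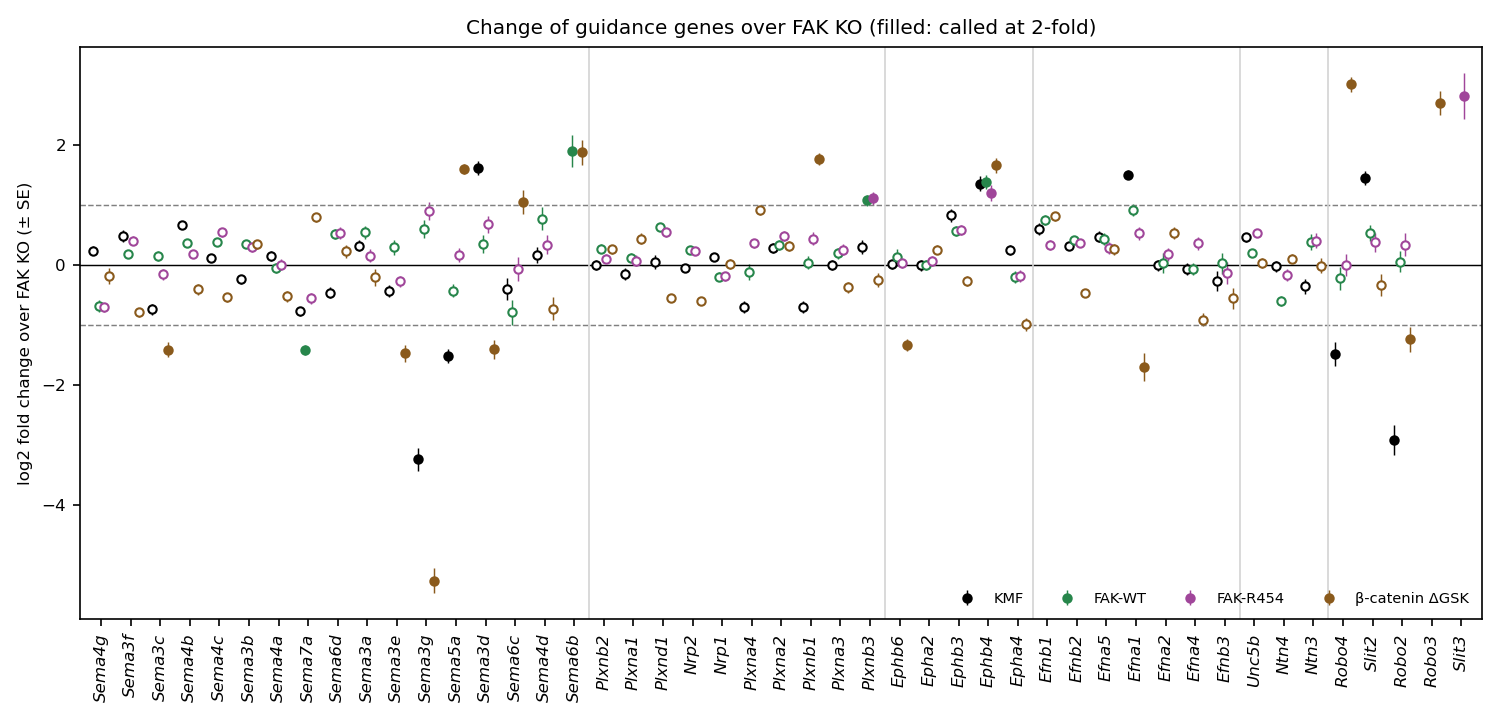
Log2 fold change over FAK KO, with its standard error, of each guidance gene tested in the other 4 lines, which share the same 3 FAK KO samples. Filled points were called at 2-fold and dashed lines mark a 2-fold change. β-catenin ΔGSK has the most filled points, with Robo4 and Robo3 high and Sema3g lowest.

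Promoter sequence was examined because these genes moved with an active form of β-catenin, which acts on promoters through TCF/LEF factors. RefSeq start sites (GRCm38.p6) were found by symbol for 61 of the 70 genes, and the 250 bases before each start were searched on both strands for CTTTGAT or CTTTGAA (TCF/LEF), TGANTCA (AP-1) and GGAATG (TEAD). Over all promoters in the table, 7.48% of windows held a TCF/LEF match, 6.75% an AP-1 match and 12.6% a TEAD match. Of the 77 windows of the members, 3.9% held a TCF/LEF match, 3.9% an AP-1 match and 10.4% a TEAD match. The median GC content was 52.4% over all promoters, 64.4% for the members, and 61.2% and 62.4% for those called higher and lower in β-catenin ΔGSK over FAK KO. Its part in these shares was not tested. The 7 genes called higher in β-catenin ΔGSK over FAK KO had 9 windows, of which none held a TCF/LEF match, 1 an AP-1 match (Sema6b) and 1 a TEAD match (Plxnb1). The 7 called lower had 10 windows, of which 1 held a TCF/LEF match (Sema3e). Printed below are windows of a pair that rose, Robo3 (chr9:37433176-37433425, minus strand) and Plxnb1 (chr9:109095186-109095435, plus strand), and of a pair that fell, Sema3d (chr5:12382916-12383165, plus strand) and Sema3e (chr5:14025026-14025275, plus strand). They run 5′ to 3′ along the strand of the gene, and capitals mark the match, which begins 148 bases before the start of Plxnb1 and 119 bases before that of Sema3e. A match is a run of letters and not a measured site.
Robo3: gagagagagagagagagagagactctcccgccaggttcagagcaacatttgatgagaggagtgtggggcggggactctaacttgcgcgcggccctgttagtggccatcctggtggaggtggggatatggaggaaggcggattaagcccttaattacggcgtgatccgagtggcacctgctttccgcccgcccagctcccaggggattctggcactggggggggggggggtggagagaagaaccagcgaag
Plxnb1: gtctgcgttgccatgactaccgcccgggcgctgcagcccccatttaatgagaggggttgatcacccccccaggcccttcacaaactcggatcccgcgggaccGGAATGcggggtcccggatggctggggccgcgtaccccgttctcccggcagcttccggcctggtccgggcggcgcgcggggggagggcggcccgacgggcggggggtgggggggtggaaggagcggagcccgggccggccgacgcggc
Sema3d: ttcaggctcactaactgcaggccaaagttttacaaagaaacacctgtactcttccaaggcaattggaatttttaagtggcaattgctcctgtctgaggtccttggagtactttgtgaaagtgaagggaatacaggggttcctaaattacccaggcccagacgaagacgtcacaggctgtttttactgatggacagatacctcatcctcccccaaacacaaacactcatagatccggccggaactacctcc
Sema3e: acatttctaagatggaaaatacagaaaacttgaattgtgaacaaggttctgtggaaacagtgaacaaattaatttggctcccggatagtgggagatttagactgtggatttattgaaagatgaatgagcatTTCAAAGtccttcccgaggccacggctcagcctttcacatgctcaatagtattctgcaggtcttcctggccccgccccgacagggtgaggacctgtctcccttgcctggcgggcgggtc

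Set directly against FAK-WT cells, β-catenin ΔGSK cells differed in 38 of 47 members tested, with 12 higher and 26 lower against 24.4% and 26.4% of all genes tested. At 2-fold, 7 were called higher (4.48% of all genes) and 10 lower (7.17% of all genes). Of the semaphorins, 4 of 17 were higher and 11 lower. Robo4 (3.23 on the log2 scale), Robo3 (2.86), Sema5a (2.02), Sema6c (1.84) and Plxnb1 (1.73) were again higher. Sema7a, one of the genes lower in FAK-WT than FAK KO cells, was 25.4, 26.1 and 26.1 FPKM in β-catenin ΔGSK samples, giving a difference of 2.22 from FAK-WT (SE 0.07, adjusted p = 1.96e-07 by limma).

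Plxna4 reached 20.3, 20.2 and 21.4 FPKM in β-catenin ΔGSK against 11.4, 11.2 and 7.93 FPKM in FAK-WT samples (log2 fold change 1.03, SE 0.13, adjusted p = 0.000347 by limma). Without FAK-WT replicate 3 the difference was 0.86, past the test and under 2-fold. Among the lower genes were Sema3g (−5.86), Efna1 (−2.62), Sema3e (−1.77), Sema3d (−1.76), Sema3c (−1.56), Sema4d (−1.50), Ephb6 (−1.46), Plxnb3 (−1.33), Robo2 (−1.29) and Plxnd1 (−1.18). With a pseudocount of 1 the low genes were closer to 0, at 1.58 for Robo3, −3.14 for Sema3g, −1.16 for Sema3d and −0.71 for Robo2. Plxnb3 was 2.17, 2.47 and 2.12 FPKM in β-catenin ΔGSK samples, near its FAK KO values and below every FAK-WT sample. Plxnd1 was 12.6, 13.1 and 13.5 FPKM against 30.1, 29.6 and 29.5 FPKM, again without overlap. Sema6b and Ephb4, which rose over FAK KO with either protein, differed between these lines by −0.02 (SE 0.25) and 0.28 (SE 0.11) and did not pass. Sema6b was above every FAK KO sample in FAK-R454 (0.739 and 0.517 FPKM) and KMF samples (0.751, 0.847 and 0.604 FPKM) too. Those pairs were under the 1 FPKM limit and were not tested.

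The parental KMF cells differ from FAK KO cells both by endogenous FAK and by not being a single clone, which cannot be told apart here. Of 45 members tested, 16 were higher in KMF and 12 lower, against 23.1% and 28.7% of all genes tested. At 2-fold, 4 were called higher (3.97% of all genes) and 4 lower (4.04% of all genes). The median log2 fold change was 0.01 for the members and −0.05 for all genes tested. Efna1 was 11.2, 10.4 and 10.7 FPKM in KMF (log2 fold change 1.51, SE 0.08, adjusted p = 2.46e-06 by limma), above all other lines. Ephb4 was 4.33, 4.85 and 3.88 FPKM (log2 fold change 1.35, SE 0.12, adjusted p = 4.33e-05 by limma).

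Sema3d was 7.24, 7.28 and 8.63 FPKM in KMF, the highest of the lines (log2 fold change 1.62, SE 0.12, adjusted p = 1.66e-05 by limma). Slit2, a Robo ligand, was 3.86, 4.68 and 4.31 FPKM against 1.61, 1.59 and 1.32 FPKM in FAK KO (log2 fold change 1.45, SE 0.12, adjusted p = 2.94e-05 by limma). Both KMF ranges lay above those of the 4 lines made from the clone. Its receptor Robo2 was 0.114, 0.097 and 0.157 FPKM in KMF, or 27, 22 and 45 fragments, and differed from FAK KO by −2.92 (SE 0.25, adjusted p = 2.99e-05 by limma). Sema3g (−3.24), Sema5a (−1.51) and Robo4 (−1.48) were the other members called lower at 2-fold in KMF. With a pseudocount of 1, Robo2 was −1.20, Sema3g −2.10 and Robo4 −0.66, the last under 2-fold and past the test. Sema5a was 1.02, 1.17 and 1.06 FPKM and Robo4 0.392, 0.308 and 0.294 FPKM, in both cases the lowest of the 5 lines. Sema4b, a transmembrane semaphorin, was higher in KMF by 0.67, Ephb3 by 0.83 and Efnb1 by 0.60 on the log2 scale, and Plxnb1 and Plxna4 were each lower by 0.70. Genes of chromosome 6, where Plxna4 lies, shifted by −0.29 in this comparison, and without that shift the Plxna4 difference was −0.37 (adjusted p = 0.0281 by limma).

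Other genes of these pathways (Dcc, Neo1, RGM and FLRT proteins, cytoplasmic effectors such as Mical, Pak and srGAP proteins) formed a list of 67 symbols in 68 rows of the table. In FAK-WT over FAK KO, 52 were tested, with 9 higher (17.3%) and 10 lower (19.2%) at an adjusted p under 0.05 by limma, against 15.6% and 25.2% of all genes tested. In FAK-R454 over FAK KO 52 were tested, with 13 higher (25%) and 3 lower (5.77%), against 9.78% and 9.89%. In β-catenin ΔGSK over FAK KO 51 were tested, with 12 higher (23.5%) and 20 lower (39.2%), against 23.7% and 34.4%, and in KMF over FAK KO 52, with 19 higher (36.5%) and 14 lower (26.9%), against 23.1% and 28.7%. In FAK-WT over FAK-R454, 2 of 52 were higher (3.85%) and 5 lower (9.62%), against 3.38% and 4.44%, and in β-catenin ΔGSK over FAK-WT, 13 of 52 were higher (25%) and 24 lower (46.2%), against 24.4% and 26.4%. Dcc, the netrin receptor, averaged under 0.1 FPKM in each line, whereas its relative Neo1 averaged between 14.3 and 23.5 FPKM.

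Rgma, a Neo1 ligand, averaged 0.411 ± 0.209 FPKM in β-catenin ΔGSK (SD, n = 3), 0.543 ± 0.168 in FAK KO (SD, n = 3), 5.46 ± 0.349 in FAK-R454 (SD, n = 2), 6.501 ± 3.07 in FAK-WT (SD, n = 3) and 7.57 ± 0.408 in KMF cells (SD, n = 3). It was called higher in KMF, FAK-WT and FAK-R454 over FAK KO, with log2 fold changes of 3.61, 3.30 and 3.15, and lower in β-catenin ΔGSK than in FAK-WT (−3.68). Chl1, an adhesion molecule that partners with Nrp1, had log2 fold changes over FAK KO of −1.17 in KMF, 0.81 in FAK-R454 and 1.35 in FAK-WT cells, each past limma's test, and was nearly absent in β-catenin ΔGSK cells, at 0.0190 FPKM against 4.78 in FAK KO (−5.33) and 12.1 in FAK-WT cells (−6.68). Mical1, an enzyme that acts on actin downstream of plexins, averaged 20.4 FPKM in KMF, 4.23 in FAK KO and 0.592 in β-catenin ΔGSK cells (2.25 and −2.65 over FAK KO). Flrt1, which binds Unc5 receptors, was higher than in FAK KO in all other lines, by 1.93 in β-catenin ΔGSK, 1.05 in KMF, 1.05 in FAK-R454 and 0.88 in FAK-WT cells. Pak1, a kinase downstream of semaphorin signalling, was lower in β-catenin ΔGSK cells (−1.84 over FAK KO and −2.48 over FAK-WT). Srgap3, which acts with Robo receptors, differed by −2.83 and Dpysl3, a collapsin response mediator, by −1.23 in KMF over FAK KO.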

How the data were processed

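RNA of 14 tumorsphere samples of 5 lines was used here (the study's methods describe 3 per line, and 2 of FAK-R454 were analysed), for which the authors enriched poly(A) RNA and sequenced paired ends. The deposited table holds FPKM per gene. Submitters' processing notes name mm10, CASAVA 1.8 and STAR 2.5, and the study's methods name TopHat2 for mapping, which was left unresolved. FPKM times gene length gave whole fragments for 100.0% of values above 0 (within 0.01), so depth per sample is known (25390558 to 35289859), and the precision of low genes is limited by their fragment counts. FPKM were used as deposited, and lines were taken from the labels.

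Each of 6 pairs of lines was fitted by limma 3.58.1 (R 4.3.3, empirical Bayes with trend) on log2(FPKM + 0.1), over genes with a mean above 1 FPKM in at least 1 of both lines. The script was tested on simulated data. Python 3.11.15 and pandas 2.3.3 were used for tables and matplotlib 3.10.9 for figures. P-values measure the spread between RNA samples that the labels call independent, and an exact permutation test of 3 against 3 samples cannot go below 0.1. A gene that passed the filter through its high line alone had to differ in level. In at least 1 comparison this held for Slit3, Sema6b, Sema3d, Sema3g, Robo2, Robo3 and Robo4. Their p-values there are no separate support for a difference. Members and lists were chosen with earlier results of these data known. Named were members called at 2-fold in any comparison, the highest of each family, members past the test in FAK-WT comparisons, and up to 4 called pathway genes per comparison (1 of these is not reported here), and Epha2, Epha4, Sema3f, Ntn1, Ntn3, Plxnc1, Robo1, Dcc and Neo1 were named after their values were seen. Alternatives were another pseudocount, other filters, median-of-ratios scaling, limma-voom on the recovered fragments, 1 fit of all lines, the replicate number as a block, centring each chromosome, and leaving out each sample. Sequences came from RefSeq (GRCm38.p6). By gene ID, 69 of 70 members were found in GENCODE M21, all 69 on the same chromosome and strand with overlapping spans. Matches to 3 antisense genes were left out.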

Additional observations from a re-analysis of the deposited data

Results flagged for a closer look

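In 12 of 46 members tested in all 3 comparisons (26.1%, against 6.18% of all genes so tested) the differences of FAK-WT and of β-catenin ΔGSK cells from FAK KO both passed limma's test with opposite signs, and the direct comparison of β-catenin ΔGSK with FAK-WT passed it as well. The 5 of these that reached 2-fold over FAK KO in at least 1 of the lines are given first. Sema7a had −1.42 on the log2 scale for FAK-WT against 0.79 for β-catenin ΔGSK, a difference of 2.22. In the same order, Sema5a was −0.43 and 1.60, a difference of 2.02. Sema6c was −0.79 and 1.05, a difference of 1.84. Efna1 was 0.91 and −1.70, a difference of −2.62. Sema3g was 0.60 and −5.26, a difference of −5.86. The 7 others were all higher with FAK-WT and lower with β-catenin ΔGSK, with direct differences of −1.50 for Sema4d, −1.18 for Plxnd1, −0.93 for Sema4c, −0.89 for Efnb2, −0.86 for Nrp2, −0.83 for Ephb3 and −0.77 for Sema4b. Ephb3 over FAK KO was −0.27 in β-catenin ΔGSK cells, and did not pass under 5 alternatives: with each chromosome centred (−0.16, adjusted p = 0.207 by limma), with median-of-ratios scaling (0.111), without FAK KO replicate 3 (0.127), and without β-catenin ΔGSK replicate 1 (0.0684) or 2 (0.0626). In FAK-WT over FAK KO, Sema4d and Nrp2 did not pass without FAK KO replicate 3 (adjusted p = 0.0604 and 0.0534 by limma). Sema5a did not pass there without FAK-WT replicate 2 (adjusted p = 0.0558 by limma). The FAK KO samples are shared by FAK-WT and β-catenin ΔGSK over FAK KO and cancel in the direct comparison. Groups of 2 or 3 samples are too small for the check on single samples.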

How the results depend on the processing

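The 47 differences called at 2-fold passed the test in the same direction under every alternative that gave a value, except Slit3 in FAK-WT over FAK-R454 (adjusted p by limma of 0.0715 without FAK-WT replicate 2, 0.155 without FAK-R454 replicate 1 and 0.201 without FAK-R454 replicate 2). Over 135 differences of named members that passed, 1720 of 1856 alternative values passed in the same direction, 135 did not pass and 1 changed sign (Plxnb2 in FAK-WT over FAK KO, -0.042 with each chromosome centred). With a pseudocount of 1, which shrinks low genes by construction, 1 member was called higher in FAK-WT over FAK KO and 1 in FAK-R454 over FAK KO, and 0 were called lower in FAK-WT over FAK-R454, as with a filter on the mean of all samples. The 2-fold calls lost with that pseudocount were Sema6b and Plxnb3 in FAK-WT over FAK KO, Ephb4 and Plxnb3 in FAK-R454 over FAK KO, Sema6b, Sema6c, Sema3d and Robo2 in β-catenin ΔGSK over FAK KO, Robo4 in KMF over FAK KO, Slit3 in FAK-WT over FAK-R454, and Plxna4 and Robo2 in β-catenin ΔGSK over FAK-WT, and all of these still passed the test. The filter left Sema6b, Slit3 and Robo3 untested. For FAK-WT over FAK-R454, members past the test were 1 higher and 3 lower with no filter, 4 higher with median-of-ratios scaling, 8 lower with limma-voom, 9 lower with 1 fit of all lines, and 9 higher and 14 lower with the replicate block; the cause was not tested. Replicate numbers were not shown to pair samples (correlations of deviations from −0.25 to 0.45, and 0 to 4 of 6 samples correlating best with their own number), and the block moved no other count by over 1.5 times.

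Leaving out 1 sample gave these ranges for members past the test: FAK-WT over FAK KO 16 to 22 higher and 4 to 6 lower, FAK-R454 over FAK KO 7 to 23 higher and 2 to 4 lower, β-catenin ΔGSK over FAK KO 14 to 16 higher and 19 to 21 lower, KMF over FAK KO 12 to 16 higher and 10 to 11 lower, FAK-WT over FAK-R454 0 to 8 higher and 0 to 14 lower (0 to 1 called lower at 2-fold), and β-catenin ΔGSK over FAK-WT 10 to 12 higher and 22 to 26 lower. Where a lone FAK-R454 sample remained, limma assumed that it varies like the other line.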
